A study of Solea senegalensis with 15 samples.

Results

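The untreated testis of the Senegalese sole was described from the 5 males that received saline, out of 15 males whose testis RNA was sequenced. All 5 saline libraries were taken and none was left out, so that the members were chosen by their treatment label and not by any measured value. The other 10 fish were 5 given recombinant follicle-stimulating hormone (rFsh) and 5 given recombinant luteinizing hormone (rLh), and they serve only as a comparison. All males were 2 years old, were first-generation offspring of parents caught in the wild, weighed 347 ± 9 g and were injected into the muscle once a week for 6 weeks, with saline alone or with 18 µg/kg of either hormone. Saline controls thus went through the same handling and injections as the treated fish. The labels call the source a biopsy, and the methods give 8 males per group but libraries of 4, whereas 5 libraries per group were analysed here. The fish are named below by the number in their labels, as saline 63, 64, 66, 67 and 68, and where 5 values stand in a row they follow that order.

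In teleost fish, germ cells develop inside cysts formed by Sertoli cells, the supporting cells of the tubule, while Leydig cells between the tubules make androgens. The sole testis is semi-cystic, because its cysts open early and spermatids finish their development free in the tubule lumen. Spermatogonia divide by mitosis, spermatocytes pass through meiosis, and spermatids then build a flagellum, so that germ line genes, meiosis genes and axoneme genes follow one another along the tubule.

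A level is given in CPM, the number of reads of a gene per 1000000 reads that the library assigned to genes. Long transcripts collect more reads, and no exon lengths were used here, so CPM values of different genes are shares of reads and do not rank their expression. The saline libraries held 67799189 to 109801527 assigned reads, against 50722658 to 76174109 in the treated fish. At 5 CPM the smallest saline library held 339 reads, for which counting alone gives a coefficient of variation (CV, the SD over the mean) of 0.0543. Of the 28921 genes of the table, 24766 had a read in saline, 15214 reached a mean of 5 CPM, 2431 reached 100 CPM and 26 reached 1000 CPM. The 2431 genes took 56.7% of the reads.

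Saline 68 stood apart from the other saline fish, and the main values that rest on it are also given without it. It had the highest of the 5 levels in 29% of the 15214 genes, against 11.8% to 25.4% in the others. Of these genes, 311 lay at least 2-fold above the median of the other 4 fish in saline 68, against 57 to 106 genes in the others. Ribosomal protein genes were at the other end in that fish. Of 75 such genes at 5 CPM or more, 71 had their lowest saline level in saline 68. They took 3.1% of its reads, against 3.48% to 4.45% in the other saline fish, 2.82% to 3.2% in the rFsh fish and 3.11% to 3.99% in the rLh fish. Mitochondrial transcripts took 3.23% in saline 68 and 2.8% to 3.44% in the other saline fish, while 9 of the 13 mitochondrial genes had their highest level in saline 68.

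The 7 marker genes were present in each of the 5 libraries, with at least 109 CPM apiece, which fits the label of testis. The gene gsdf, expressed by Sertoli cells in fish (linkage group 21, 7775613 to 7777945), stood at 1437, 1897, 2479, 1975 and 2403 CPM. The Sertoli cell hormone gene amh (linkage group 14) had 175, 142, 207, 195 and 162 CPM. The means of gsdf and amh were 2038 ± 422 and 176 ± 25.7 CPM (SD, n = 5, as for later values written with ±).

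Germ cell markers covered the germ line, meiosis and the flagellum. The gene of the piRNA-binding protein piwil1 (linkage group 5) had 638, 577, 362, 351 and 582 CPM, with saline 66 and 67 below the other 3 fish. The gene sycp1, which encodes the transverse filament of the synaptonemal complex that joins paired chromosomes in meiosis, had 312, 286, 318, 372 and 334 CPM. It was one of the steadier markers, with a CV of 0.0968. Its span overlaps that of another annotated gene, LOC122767809, and since counting used default settings, which do not use strand, such values are uncertain. The flagellar central-pair gene spag17 had 190, 247, 192, 192 and 215 CPM and a CV of 0.119.

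Of the Leydig cell markers, only insl3 varied more than each of the markers above. The CV of hsd3b1 was 0.254, against 0.269 for piwil1. The gene hsd3b1, whose enzyme forms the keto group of progestins and androgens, had 649, 522, 495, 409 and 779 CPM. The gene of the relaxin-family hormone insl3 (linkage group 1, 9264826 to 9267821) had 219, 129, 109, 112 and 543 CPM. The level in saline 68 was 2.48 times the next highest, and its 95% Wilson interval of 538 to 548 CPM covers counting error only. The CV of insl3 was 0.829, and 0.364 over the other 4 fish. In bulk RNA, fewer cells of a type and less RNA per cell cannot be told apart, which holds for this and each later difference.

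**Figure D1:**
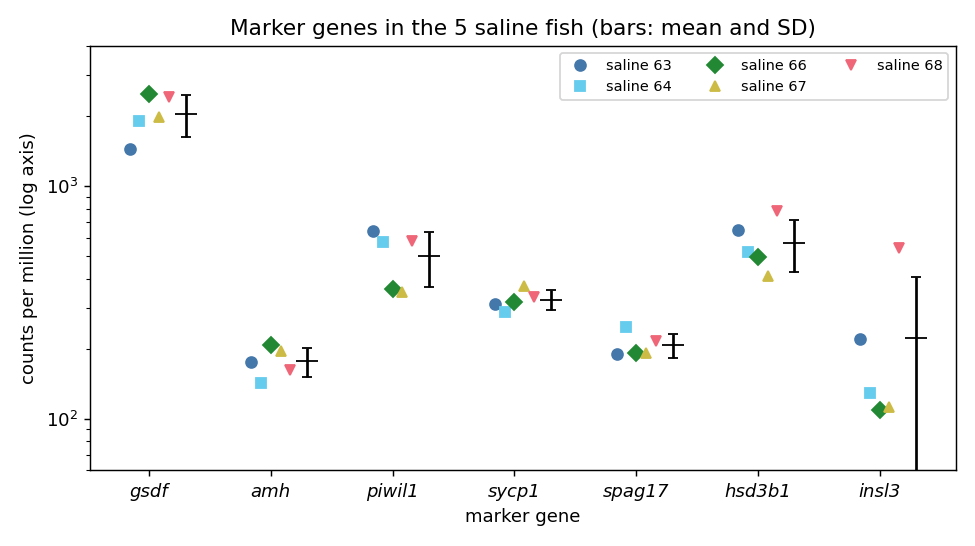
Levels of the 7 marker genes in each saline fish, in CPM on a log axis. Coloured symbols are fish, and the black bar is the mean with its SD. The 5 fish lie close together for sycp1 and spag17, whereas for insl3 saline 68 stands at 543 CPM and the other 4 fish at 109 to 219 CPM.

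The genes with the largest shares of reads included those of mitochondria, protein folding and translation. The 20 genes with the highest mean took 5.56% of the reads. Among them were 7 of the 13 genes of the mitochondrial genome, led by COX1 with 14144, 10819, 13538, 11403 and 11361 CPM. The next, COX2, had 6039 ± 292 CPM. The mitochondrial genes COX3, ATP6 and ND4 each overlap a neighbour, and the level of ATP6 ran from 1020 to 1897 CPM.

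The first nuclear gene by read share was LOC122779205, matched to human HSPA8, a constitutive heat shock protein. It had 6192, 4105, 6357, 5031 and 2925 CPM, with its lowest level in saline 68. The cytoplasmic actin gene actb2 had 4012 ± 494 CPM and the chaperone gene hsp90ab1 3740 ± 220 CPM. Translation was represented by LOC122780767, matched to the elongation factor gene EEF2, with 2082 ± 270 CPM, and by the ribosomal protein genes rpl3, rpl4 and rpsa with 1326 ± 205, 1149 ± 122 and 1125 ± 125 CPM. The Sertoli cell gene gsdf ranked number 9 of all genes. Also among the 20 were bcan, known as a proteoglycan core protein gene of brain matrix in mammals, with 1176 ± 186 CPM, the cyclin gene ccng1, whose span overlaps that of nudcd2, with 1169 ± 136 CPM, and LOC122774764 and LOC122777261, which carry no name, with 1720 ± 135 and 1242 ± 179 CPM. The deadenylase scaffold gene cnot1 was the steadiest of the 20, with 1202, 1169, 1182, 1213 and 1179 CPM and a CV of 0.0149.

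Gene lists for cell types and processes were then summed in each fish. Only genes whose symbol matched a listed name were counted, and 32.3% of the genes at 5 CPM or more carry an identifier only. A summed level is thus that of the matched genes and does not measure the share of a cell type. Germ line and piRNA genes were among the more uniform lists in sum, with 3701, 3898, 3405, 3683 and 3777 CPM and a CV of the sum of 0.0492. Of the 21 matched members, 21 reached 5 CPM. As single genes they were not more uniform, with a median CV of 0.134 against 0.121 for all genes at 5 CPM or more. The Tudor-domain gene tdrd6, a scaffold of germ granules in zebrafish, had 653, 739, 813, 980 and 927 CPM. The RNA-binding gene cpeb1b had 553 ± 54.5 CPM. The germ cell helicase gene ddx4 (vasa) had 465, 568, 431, 443 and 449 CPM, with saline 64 above the rest. The most variable members were piwil1, with a CV of 0.269, and tdrd7b, at 14.7 to 27.4 CPM with a CV of 0.237.

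Genes of undifferentiated spermatogonia were a small share of the reads, at 165 to 195 CPM in sum. The receptor gene gfra1b, a stem cell marker in fish and mammals, had 66.7, 50.1, 67.9, 47.5 and 65.9 CPM. The translational repressor gene nanos3 was steadier, at 47.2 to 55.8 CPM. Zinc finger gene zbtb16a stood at 21.2 ± 3.91 CPM and nanos1 at 11.8 ± 1.72 CPM. The most variable members were the transcription factor gene sall4, at 3.58 to 8.61 CPM with a CV of 0.37, and ret, which encodes the signalling partner of the gfra1 receptor, at 4.27 to 10.1 CPM with a CV of 0.293.

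Meiosis genes summed to 1423 to 1556 CPM, the smallest CV of a summed level among the 19 lists at 0.0396. Without saline 68 it was 0.0405, and heat shock genes then had the smallest, at 0.0196. After sycp1 came the cohesin genes smc1b and rad21l1, with 151 ± 23.8 and 134 ± 8.76 CPM, and the telomere attachment gene terb1 with 137 ± 10.3 CPM. All 3, like spef2, ar, col1a2, col1a1a, blnk, figla and zp3c below, overlap the span of another gene. The strand exchange gene dmc1 had 41.7, 18.7, 26.7, 27.7 and 32.6 CPM, and meiob, which encodes a single-strand binding protein of meiosis, 7.87, 3.44, 4.52, 5.4 and 8.75 CPM. Both were lowest in saline 64.

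Spermatid and flagellum genes formed the largest list, with 62 of 81 matched members at 5 CPM or more and 3100 to 3959 CPM in sum. The glycolysis gene gapdhs, named for a sperm enzyme of mammals, had 529, 492, 575, 517 and 500 CPM, a CV of 0.0626. Whether it is specific to sperm in sole was not tested. The axoneme gene spef2 had 207 ± 23.3 CPM. The chaperone gene hspa4l, which mouse spermatids express, ran lower in saline 66 and 67 (111 and 119 CPM) than in saline 63, 64 and 68 (168, 182 and 239 CPM). The same 2 fish were lowest for spata18, with 9.56, 11.7, 4.54, 5.11 and 19.4 CPM, and for the dynein intermediate chain gene dnai3, with 10.3, 13.7, 8.83, 8.32 and 25.2 CPM. The genes spata18 and dnai3 were named for their variation, and 23 of the 62 members had their highest level in saline 68, where 29% of all genes do so.

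The Sertoli cell list summed to 4172 ± 496 CPM, led by gsdf. The tight junction gene tjp1a had 400 ± 37.3 CPM and the claudin gene cldn11a 300, 278, 323, 293 and 288 CPM. The testis-determination gene dmrt1, active in Sertoli and germ cells, had 256 ± 31 CPM. The androgen receptor gene ar ran from 50.1 CPM in saline 67 to 115 CPM in saline 68. The gap junction gene gja1b was the most variable, with 3.82, 5.6, 4.32, 3.47 and 10.2 CPM. The genes fshr and dhh are listed at 0 in all 15 fish, as is sycp3 of the meiosis list. Since 3871 genes of the table are at 0 in each library, among them genes that many cell types use, such as cebpb and socs3b, these entries say nothing about the testis.

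The Leydig cell and steroidogenesis list varied more in sum than any other, with 1911, 1971, 1378, 1192 and 3383 CPM and a CV of 0.437. Without saline 68 the CV of the sum was 0.24, still the highest of the 19 lists, but macrophage and granulocyte genes were close at 0.228. By the median CV of single members the Leydig list ranked number 3, and number 6 without saline 68. It matched 14 genes for 28 symbols, and cyp11a1, cyp17a1 and cyp11c1 were not among them. Of the 11 Leydig list members at 5 CPM or more, 8 had their highest level in saline 68, against 29% of all genes. The gene star2, a paralog of the gene of the protein that carries cholesterol into mitochondria, had 188, 500, 138, 120 and 765 CPM, so that saline 64 was also high. The androgen-converting enzyme gene hsd11b2, needed for the fish androgen 11-ketotestosterone, had 470, 367, 275, 233 and 764 CPM. The next members, star, lhcgr, hsd3b7 and hsd20b2, were added after their values were seen. The gene star itself had 88.7, 120, 56.8, 60 and 197 CPM. For star2, hsd11b2 and star, saline 68 was the highest and saline 66 and 67 were the 2 lowest. The luteinizing hormone receptor gene lhcgr, with 69.5, 59, 87.4, 35.6 and 112 CPM, kept the extremes but not that order. Other members did not share the pattern, since hsd3b7 had 101 to 157 CPM with its lowest level in saline 68, and hsd20b2 46.5 to 53.4 CPM.

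The treated fish show where saline 68 falls. The summed Leydig list ran from 1322 to 4070 CPM in the rFsh fish and from 2135 to 3827 CPM in the rLh fish. The 4 other saline fish, at 1192 to 1971 CPM, thus lay below the 5 rLh fish, while saline 68 lay within both treated ranges. For insl3 the rFsh fish had 383, 467, 244, 904 and 164 CPM (rFsh 61, 62, 64, 68 and 69). The rLh fish had 296, 377, 364, 527 and 274 CPM (rLh 63, 64, 66, 67 and 68). Each of these 5 lay above 4 of the saline fish and below saline 68. Against all 5 saline fish the log2 fold change of insl3 was 0.94 ± 0.47 (SE) with rFsh and 0.68 ± 0.47 with rLh, which did not pass the edgeR quasi-likelihood test with Benjamini-Hochberg adjustment (adjusted p = 0.321 and 0.526). Without saline 68 the saline mean of insl3 was 143 CPM and the log2 fold changes were 1.56 ± 0.41 with rFsh and 1.31 ± 0.41 with rLh, still without a call in edgeR (adjusted p = 0.0527 and 0.137). Without rFsh 68, the highest fish, the first was 0.46 ± 0.44 (adjusted p = 0.674).

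**Figure D2:**
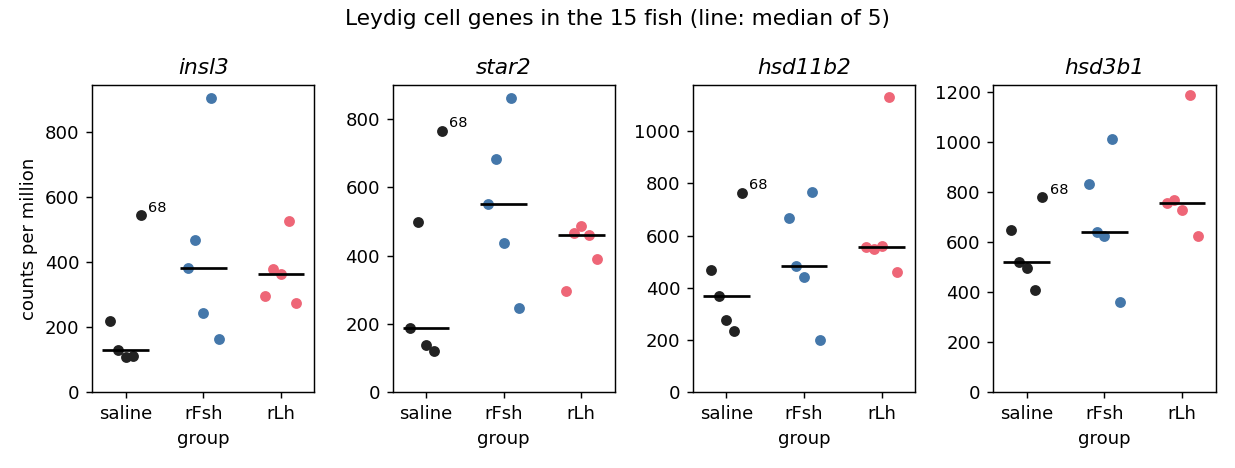
Levels of insl3, star2, hsd11b2 and hsd3b1 in CPM in the 15 fish, with 1 point per fish, 5 fish per group in the order of their numbers and a line at the group median. Saline 68 is marked, and it stands above the other 4 saline fish for each of the 4 genes and within the range of the rFsh fish.

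Cells of the tubule wall and the interstitium gave moderate levels. Smooth muscle and peritubular genes summed to 1168 ± 96.8 CPM, led by the myosin gene myh11a with 409 CPM and tagln with 293 CPM. The smoothelin gene smtnb was the highest in saline 66 (349 CPM) and the lowest in saline 68 (160 CPM). Fibroblast and matrix genes summed to 2040, 2165, 2054, 2290 and 2856 CPM. The collagen genes col1a1b, col1a2 and col1a1a had 467, 434 and 325 CPM in saline 68 and no more than 338, 246 and 204 CPM in the other 4 fish. Of the 14 members of this list at 5 CPM or more, 11 were highest in saline 68, against 29% of all genes, and the CV of the sum was 0.148, or 0.0542 without it.

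Endothelial genes summed to 339 to 478 CPM. Among them the receptor gene kdr had 160, 75.3, 79.6, 176 and 43.6 CPM, while vwf stayed at 82.9 to 98.1 CPM. The vesicle diaphragm gene plvapa had 37.1 CPM in saline 66 and 11.2 to 16.8 CPM in the other 4. Endothelial members thus did not vary as one group.

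The matched blood and immune cell genes took small shares, which do not measure blood or immune cell content. The red blood cell list matched 11 genes for 22 symbols, and hbae5 was its only globin gene. The macrophage and granulocyte list matched 15 genes for 21 symbols, and the lymphocyte list 11 for 19. Red blood cell genes summed to 28.6 to 41.5 CPM, with alas2, the gene of the first enzyme of erythroid heme synthesis, at 9.43 CPM. Macrophage and granulocyte genes summed to 393, 499, 679, 597 and 625 CPM, led by the antigen presentation gene cd74a with 287 CPM and the receptor gene csf1rb with 59.5 CPM. Lymphocyte genes summed to 25.3 to 37.1 CPM, with blnk at 9.91 CPM, lck at 8.17 CPM and cd8b at 5.71 CPM in saline 68 and 1.5 to 2.37 CPM in the others. Interferon response genes summed to 769, 862, 850, 1145 and 928 CPM. In that list stat1a had 252, 286, 294, 389 and 294 CPM and the ubiquitin-like gene isg15 28.4, 48, 34.1, 82.8 and 71.6 CPM, with saline 67 the highest for both.

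Genes of other organs were low but not absent. Liver and plasma protein genes summed to 156 to 280 CPM, mostly from the kininogen gene kng1 (93.8 CPM) and the apolipoprotein gene apobb.1 (97.7, 78.7, 73.5, 152 and 64.3 CPM), and only 5 of 23 matched members reached 5 CPM. Skeletal muscle genes summed to 447 to 621 CPM, led by the AMP deaminase gene ampd1 with 147 CPM and the calcium channel gene ryr1a with 84.4 CPM. Only 10 of 27 matched members reached 5 CPM, and the muscle genes ckma, ckmb, acta1b and atp2a1 were not among them. Oocyte genes summed to 36.9 to 60.8 CPM, with org at 12.6 CPM, figla at 8.76 CPM and zp3c at 8.62 CPM. Of 10 matched oocyte members, 4 reached 5 CPM. How far such genes mark other cells, and not the testis itself, was not tested.

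Proliferation genes summed to 1733, 1844, 1678, 1711 and 2083 CPM. The division marker gene mki67 had 231, 227, 147, 153 and 247 CPM, with saline 66 and 67 low as for piwil1, and mcm4 had 76.6, 73.6, 52.3, 46.8 and 82.3 CPM with the same 2 fish low. In contrast top2a (183 CPM) and ccnb1 (164 CPM) did not separate those fish. Of the 25 members at 5 CPM or more, 16 were highest in saline 68, where 29% of all genes are. Immediate early genes, which respond to handling and dissection, summed to 501 to 637 CPM, and most of this was ccn2a, mycb, dusp1 and klf6a. The paralog ccn2b was at 38.6 CPM in saline 68 and 4.14 to 11.8 CPM in the other 4, a CV of 1.09, or 0.48 without saline 68, and egr1 was at 16.2 CPM in saline 67 and 7.45 to 8.46 CPM in the others. Heat shock genes summed to 4976 ± 208 CPM, mostly hsp90ab1 and the endoplasmic reticulum chaperone gene hspa5 (401 CPM).

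**Figure D3:**
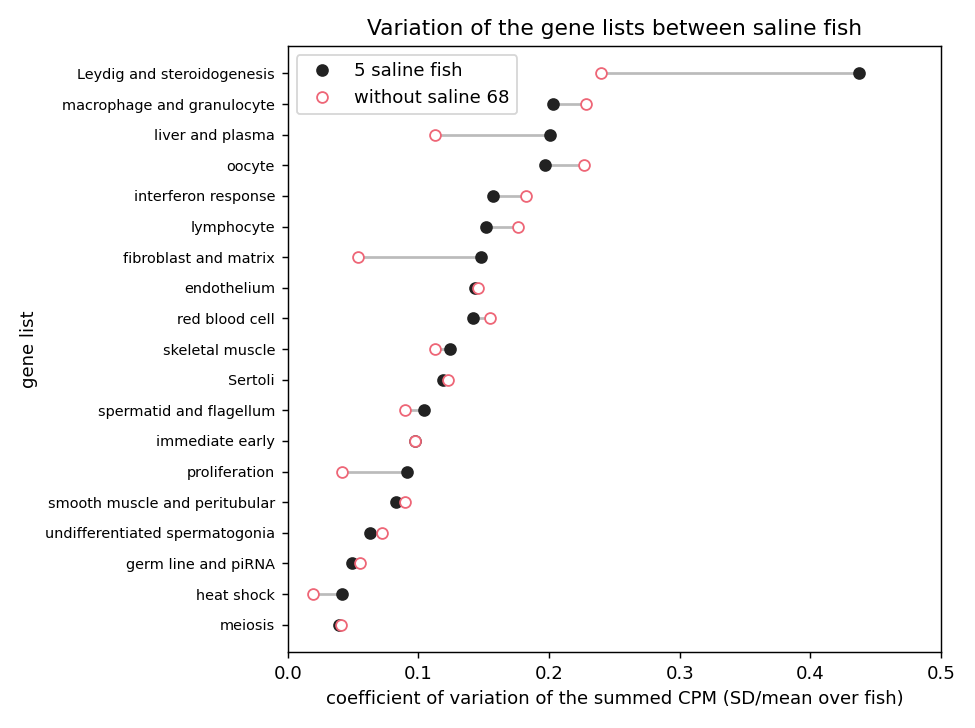
Coefficient of variation of the summed CPM of each of the 19 gene lists over the saline fish. Black points are all 5 fish and open points leave out saline 68. The Leydig list is highest in both (0.437 and 0.24), but without saline 68 macrophage and granulocyte genes are close at 0.228. Germ line, meiosis and heat shock genes lie at or below 0.0552 in both.

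Across single genes, variation between the 5 fish was small for most. Over the 15214 genes at 5 CPM or more the median CV was 0.121, with quartiles of 0.0794 and 0.192, and it was 0.107 without saline 68. It fell with level, from a median of 0.186 in the lowest of 5 level classes of equal size to 0.0938 in the highest. The same genes had a median CV of 0.139 in the rFsh fish and 0.109 in the rLh fish. Against the value of 0.121, the median was 0.254 for the Leydig list, 0.209 for spermatid and flagellum genes, 0.204 for Sertoli genes, 0.141 for meiosis genes and 0.134 for germ line genes. Without saline 68 these medians were 0.195, 0.196, 0.162, 0.123 and 0.132 in the same order. The highest list medians were those of 4 oocyte genes (0.336, or 0.367 without saline 68) and of 5 liver genes (0.308, or 0.135 without it). These lists differ in level, so their medians are not ranked by variation alone.

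The steadiest genes at 100 CPM or more were LOC122773747 (CV 0.00841), the lipid kinase regulator pik3r4 (133 CPM, CV 0.0104), the microtubule tip gene clip1a (285 CPM, CV 0.0108), LOC122773276 (228 CPM, CV 0.0129), the poly(A) polymerase gene papolg (225 CPM, CV 0.0144) and the ubiquitin ligase gene huwe1 (878 CPM, CV 0.0148). They moved less between fish than any of the 19 lists did in sum, but they were picked as the lowest of many genes, which favours this. The counting error at their levels was not computed.

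At the other end, 380 genes (2.5%) had a CV of 0.5 or more and 49 (0.322%) a CV of 1 or more. Without saline 68 the set at 0.5 or more held 253 genes, and 197 were in both, which is 51.8% of the first set and 77.9% of the second. Of the 380 genes, 33.7% also reached a CV of 0.5 in the rFsh fish and 24.2% in the rLh fish, against 2.07% and 0.94% of all 15214 genes. Since CV falls with level, the shares of all genes are not those of genes at the same levels, which were not computed.

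The 25 most variable genes are described by their values, with no test, because they were chosen by them. Of these, 15 carry an identifier only. A fish was called high when it lay above the midpoint of the lowest and the highest saline fish on the scale of log2(CPM + 0.5), a definition settled after the values were seen. In 23 of the 25 genes a single saline fish was high. It was saline 68 in 8, saline 67 in 6, saline 64 in 5, saline 66 in 2 and saline 63 in 2. With no offset of 0.5 CPM in the midpoint it was 19 of the 25. A CV this large over 5 fish is reached mainly where 1 fish dominates, so the choice by CV favours this pattern. Among the 380 genes at a CV of 0.5 or more, 1 fish was high in 137 (36.1%). In the treated fish the 25 genes were also high in some fish, and of the 23 only ccdc88c, LOC122775900 and LOC122786096 had no treated fish above the midpoint.

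The highest CV, 2.09, belonged to csad (linkage group 11, 10089486 to 10097698), whose enzyme makes hypotaurine from cysteine sulfinate. It had 0.308, 0.354, 0.565, 0.781 and 36.4 CPM, so that saline 68 stood 46.6 times above the next fish, and over the other 4 fish its CV was 0.432. Its span overlaps that of LOC122777845. The unnamed genes LOC122780461 and LOC122777765 followed it, with 30.9 and 34.6 CPM in saline 68 and no more than 1.06 and 1.32 CPM in the others. Also high in saline 68 alone were the phosphodiesterase-family gene gdpd2 (55.8 CPM against 2.64 to 7.46), the glutamate receptor subunit gene grin1a (34 CPM against 2.4 to 3.41), the G protein chaperone gene ric8a (23 CPM against 1.89 to 2.2) and the calcium channel subunit gene cacnb1 (52.8 CPM against 4.04 to 7.68).

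The same genes did not all behave alike in the treated fish. For csad, LOC122780461 and ric8a the only treated fish above the midpoint was rFsh 62, with 25.7, 23.3 and 18.7 CPM. For gdpd2, 4 of 5 rFsh fish and 4 of 5 rLh fish were above it, and for cacnb1 4 and 5. With rFsh, gdpd2 ran from 11.7 to 79.5 CPM and cacnb1 from 11.5 to 42 CPM.

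Genes highest in saline 67 included ccdc88c, a Wnt signalling scaffold in mammals (linkage group 16, 13107909 to 13159236), with 28.6, 34.2, 35.3, 559 and 93.6 CPM. None of the 10 treated fish exceeded 41.7 CPM for it. The gene LOC122779934 had 14.1, 13, 14.3, 225 and 38.3 CPM. The gene LOC122758320 had 1 read in saline 63 (0.00994 CPM, 95% Wilson interval 0.00175 to 0.0563) and 24.4 CPM in saline 67. Also in this set were LOC122771365 with 36.8 CPM, LOC122780065 with 53.1 CPM, LOC122775900 with 89.5 CPM and the non-coding RNA LOC122773814 with 63.3 CPM. In each of these 7 genes the second highest fish was saline 68. Whether reads of 1 library were counted in another was not tested, and that would change what the saline 68 values of these genes, such as 93.6 CPM for ccdc88c, stand for.

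Other fish had their own genes. Saline 64 was highest for the complement gene c6 (33.3 CPM against 3.57 to 6.6), the vesicle traffic gene rab3c (18.1 CPM against 1.24 to 3.24), LOC122759463 (22.8 CPM), LOC122783486 (47 CPM) and the non-coding LOC122775197 (18.2 CPM), whose span overlaps that of LOC122775196. Saline 63 was highest for LOC122785777, matched to human NUGGC, a nuclear GTPase gene of germinal centre B cells in human, with 234, 21.1, 5.52, 1.88 and 2.22 CPM, and for the non-coding LOC122772693 with 21.8 CPM. Saline 66 was highest for the myosin kinase gene mylk4b, with 4.52, 7.18, 68.9, 10 and 8.88 CPM, and for LOC122786096, with 202 CPM against 11.5 to 42.7.

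The gene LOC122785777 also split the treated fish, with 34.1 to 174 CPM in the rLh fish and 0.525 to 8.54 CPM in the rFsh fish. These groups do not overlap, and rLh was not tested against rFsh. Saline 63 lay above the first range, saline 64 between the 2 ranges and the other 3 saline fish within the second. For LOC122772977 and si:ch211-76l23.4, saline 68 was highest, with 22 and 21.8 CPM. The 25th gene, c6, had a CV of 1.25, and just outside the limit stood ncam3 with 1.25, si:ch211-212k18.5 with 1.24 and pfkmb with 1.24.

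**Figure D4:**
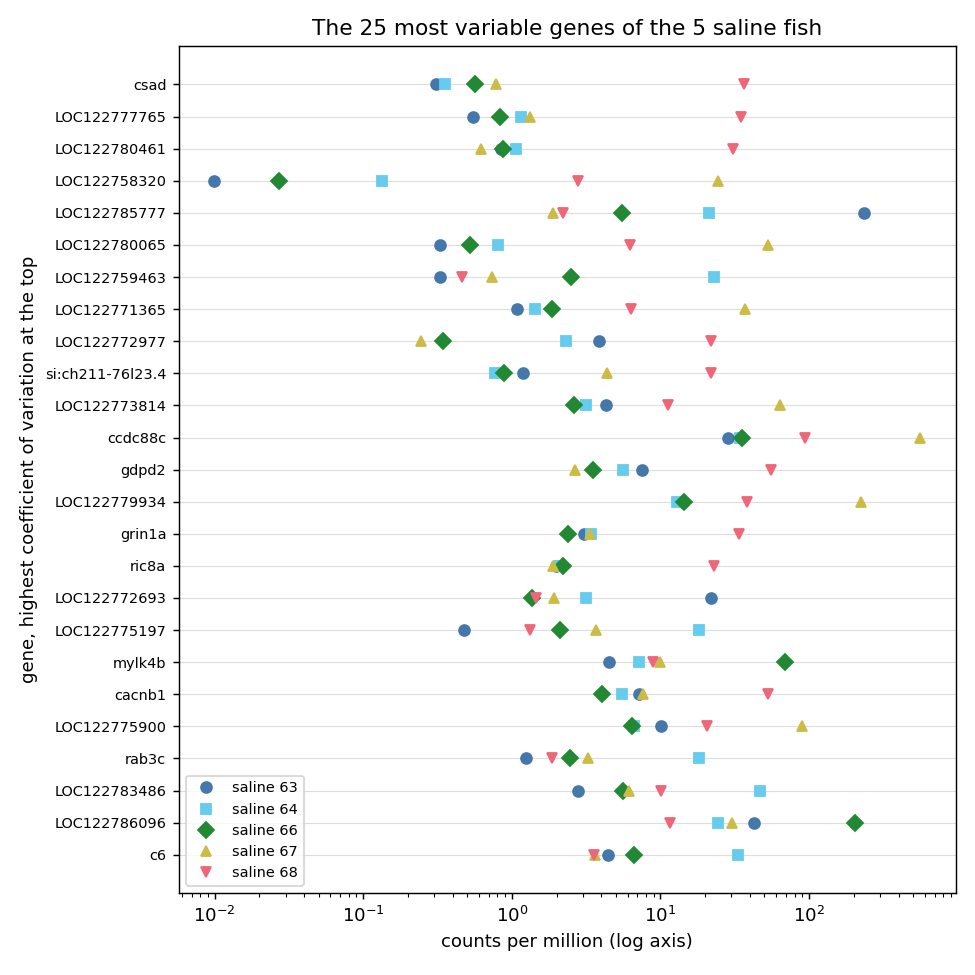
Levels of the 25 most variable genes in each saline fish, in CPM on a log axis, 1 line per gene with the highest CV at the top. For most genes 1 fish stands alone at the right, saline 68 for csad at 36.4 CPM and saline 67 for ccdc88c at 559 CPM, and in the genes led by saline 67 the next point is saline 68.

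The 380 genes were grouped by which fish were high. A single fish was high in 137 genes (36.1%), 2 fish in 131 (34.5%), 3 in 97 (25.5%) and 4 in 15 (3.95%). The commonest sets were saline 68 alone (78 genes), saline 64 with 68 (39 genes) and saline 63, 64 and 68 together (36 genes). The genes named next from these sets, apart from spata18, were chosen after their values were seen. The last set held podxl2, a sialomucin gene, with 153, 118, 68, 42.8 and 246 CPM, and the spermatid gene spata18. Saline 64 with 67 had 23 genes, and saline 63 with 66 had 13, among them slc39a8, a zinc and manganese transporter gene, with 42.4, 9.35, 33.9, 7.8 and 5.62 CPM.

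Chosen after its values were seen, because it is a relaxin-family receptor gene, rxfp1 had 144, 14.2, 147, 9.91 and 83.1 CPM in saline. The paper also reports the receptor genes rxfp2 and rxfp3 in this testis, whose levels are not given here. In the rFsh fish it ran from 0.98 to 122 CPM with a median of 3.73 CPM, and in the rLh fish from 21 to 106 CPM with a median of 84.2 CPM. The log2 fold change was -1.64 ± 1.04 (SE) with rFsh and -0.28 ± 1 with rLh, and neither passed the edgeR test (adjusted p = 0.429 and 0.921). The first rests on rFsh 69, the fish at 122 CPM, since without it the fold change was -4.63 ± 0.92 and passed (adjusted p = 0.0163). That fish was singled out after its value was seen, and the fit without it called 998 genes with rFsh, against 10 with all fish. The 3 groups overlap for this gene.

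The sets differed in where the treated fish fell. For the 78 genes high in saline 68 alone, the rFsh median lay above the other 4 saline fish in 66 (84.6%) and the rLh median in 61 (78.2%), where 27.5% and 25.3% of all 15214 genes do so. For the 20 genes high in saline 67 alone it was 2 and 2 (10% each), against 19.9% and 16.7% of all genes. For the 36 genes high in saline 63, 64 and 68, both medians lay above saline 66 and 67 in each of the 36, where the rFsh median does so in 43.9% of all genes and the rLh median in 43.5%. For the 13 genes high in saline 63 and 66, the rLh median lay above the other 3 in 13 and the rFsh median in 1, against 21.5% and 22.2% of all genes. Choosing genes with a high fish leaves the other fish low, so these shares are a description and carry no test.

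The levels of 1 fish's genes in another were also compared, in a measure chosen after the values above had been seen. Genes were taken where 1 fish had at least 3 CPM and at least 5 times the highest of 3 other fish, and the excess of the remaining fish over the median of those 3 was expressed as a percent of the excess of the first. Of 24 such genes for saline 67, saline 68 stood at a median of 13% (quartiles 10.8% and 16.1%), and 22 of the 24 lay between 5% and 25%. The share ran from 5.98% for LOC122775253 to 30% for LOC122785456 and 31.3% for lhfpl3. It was 11.3% for ccdc88c, 11.5% for LOC122779934, 10.9% for LOC122780065 and 11.3% for LOC122758320. In the reverse direction, over 25 genes of saline 68, saline 67 stood at 1.42%. Saline 66 stood at 10% for 15 genes of saline 64, and saline 63 at -2.09% for 8 genes of saline 64. Among the treated fish, rLh 63 stood at 11.3% for 15 genes of rLh 68 and at 7.38% for 27 genes of rLh 64. Of 36 ordered pairs of fish within a group that had at least 8 such genes, 11 had a median over 5%. Saline 66 stood at 78.7% for 13 genes of saline 63, a pair that shares high genes as the sets above show. What sets these levels was not tested.

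**Figure D5:**
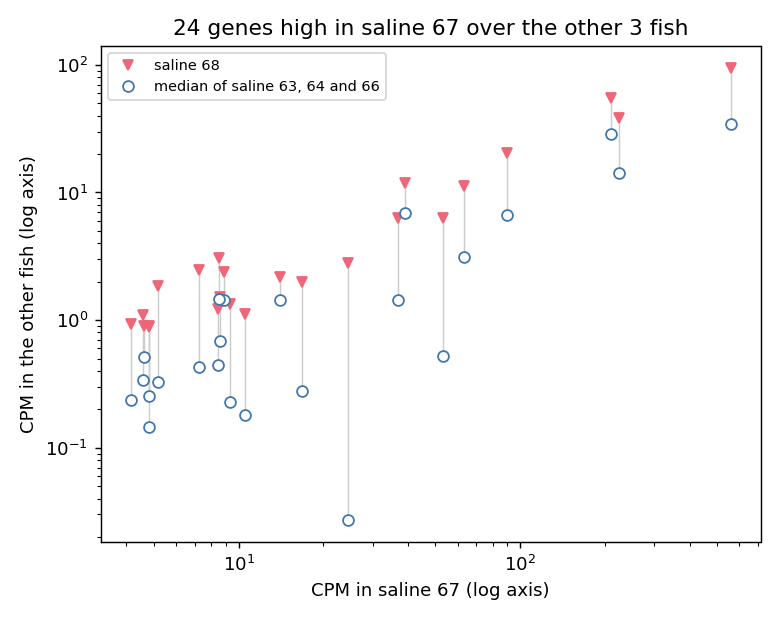
The 24 genes that stood at least 5 times higher in saline 67 than in saline 63, 64 and 66. The horizontal axis is the CPM in saline 67 and the vertical axis the CPM in saline 68 (triangles) and the median of the other 3 fish (open circles), both on log axes. The triangle lies above the circle for each gene, at a median of 13% of the excess in saline 67.

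Variable genes were spread over all 21 linkage groups, from 1.42% of the genes at 5 CPM or more on linkage group 7 to 3.07% on linkage group 14. Of the 334 that are placed, 53 (15.9%) had another variable gene within 50 kb, against 1368 of all 13969 placed genes (9.79%). These made 36 pairs, and in 12 the same fish were high. No share for random pairs was computed, and pairs within 1 run of genes are not separate cases. One run, also picked after the values were seen, lay on linkage group 3, where mettl3 (10631005 to 10638530), ttc5, si:ch211-212k18.5 and LOC122767233 (10658080 to 10669766) were all high in saline 68 alone. The RNA methyltransferase gene mettl3 had 29.5, 32.3, 25.4, 29.6 and 77.6 CPM and ttc5 27.2, 25.9, 19.6, 24.7 and 67.3 CPM. The spans of mettl3 and ttc5 overlap from 10638326 to 10638530, and how reads from that stretch were assigned was not tested. All pairs within this run are counted in the 12. On linkage group 9 pklr, a pyruvate kinase gene, had 76.4, 93.9, 69.6, 77.9 and 227 CPM beside LOC122775093, which is also high in saline 68 alone.

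Finally, the saline testis was compared with the treated testis across 21227 genes. Both comparisons share the 5 saline fish. In edgeR 10 genes (0.0471%) passed with rFsh and 0 (0%) with rLh. None of the 7 markers and none of the 360 tested members of the 19 lists passed with either hormone. At an unadjusted p under 0.05 there were 73 of them with rFsh (20.3%, against 17.2% of all genes, or 3642) and 48 with rLh (13.3%, against 13.2% or 2802), so these shares lay near the background. DESeq2 called 19 of them with rFsh (5.28%, against 2.93% of all genes) and 1 with rLh (0.278%, against 0.221%). By list, meiosis genes had 13 of 21 tested members at an unadjusted p under 0.05 with rFsh (61.9%), and DESeq2 called sycp1, sycp2, mnd1 and cntd1 among them. Proliferation genes had 11 of 25 (44%), with bub1bb, ccne2 and birc5a called by DESeq2, and Leydig genes had 2 of 13 (15.4%) with 0 calls. Meiosis and proliferation genes had the highest of these shares with rFsh among the 19 lists. With rLh the shares were 6 of 21 (28.6%) for meiosis, 6 of 25 (24%) for proliferation and 1 of 13 (7.69%) for Leydig genes, against 13.2% of all genes. DESeq2 made 0 calls among them with rLh. These lists were chosen with earlier results of the same fish known. In edgeR amh differed by -0.48 ± 0.13 (SE, log2) with rFsh (adjusted p = 0.124, and 0.0244 in DESeq2), with 103 to 150 CPM in the rFsh fish and 142 to 207 CPM in saline, which overlap. The gene sycp1 differed by 0.43 ± 0.10 (adjusted p = 0.118, and 0.0105 in DESeq2), with 386 to 498 CPM in the rFsh fish against 286 to 372 CPM, and these groups do not overlap. In edgeR sycp1 passed without saline 68 (0.44, adjusted p = 0.0465) and without rFsh 69 (0.49, adjusted p = 0.014). Those fits called 633 and 998 genes in all. In the other edgeR fits that left out 1 fish, the adjusted p of sycp1 was 0.119 to 0.276.

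Of the 380 variable genes, edgeR called none with either hormone, where it called 0.0471% of all genes with rFsh and 0% with rLh. At an unadjusted p under 0.05 in edgeR there were 56 with rFsh (14.7%, against 17.2% of all genes) and 44 with rLh (11.6%, against 13.2%). DESeq2 called 9 with rFsh (2.37%, against 2.93%) and 0 with rLh (against 0.221%). These shares lay near or below those of all genes. The 380 genes were chosen for their spread among the saline fish, which also enters the error of these tests. Low shares were thus favoured by the choice and say nothing about a response to the hormones. The number of rFsh calls in edgeR was 633 without saline 68, 998 without rFsh 69 and 1 to 7 without one of the other saline fish. For rLh it was 0 in each of these fits.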

How the data were processed

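Testis RNA of 15 male Senegalese sole was sequenced, with 1 library per fish, as 100-base read pairs from total RNA with an integrity number of 8.7 to 9.8, by a modified SMARTseq2 protocol. The deposited values are raw counts of reads per gene, which the authors made from trimmed reads, and no normalization was applied before deposit. The submitters' processing notes name Cutadapt 3.4, FastQC 0.11.9, Subread 2.0.1, CASAVA 1.8 and R 4.0.4, and the methods give gene-level counting by RSubread with default settings, which do not use strand. Of 28921 genes, 26916 (93.07%) matched the RefSeq table of the IFAPA_SoseM_1 assembly, from which names and positions were taken. That table holds gene spans and no exon lengths, so levels per kb, although planned, were not computed.

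Counts were divided by the library total and multiplied by 1000000 (CPM). Variation was the SD over the mean across the 5 saline fish at a mean of 5 CPM or more. Libraries held 50722658 to 109801527 assigned reads. Intervals are 95% Wilson intervals and cover counting error only, since no molecular identifiers were used. Nothing in the labels gives a batch.

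Each hormone was compared with saline by the two-sided edgeR 4.0.16 quasi-likelihood test with TMM factors in 1 fit of the 3 groups, in R 4.3.3, over 21227 genes with at least 50 counts in 1 fish, with Benjamini-Hochberg adjustment and a threshold of 0.05. The fit and the variation measure were tested on simulated data. Alternatives were DESeq2 1.42.0, other scalings and filters, a thinning to the smallest library, the fish number as a block and leaving out each fish. Tables and plots were made in Python 3.11.15.

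Genes named were the 7 markers, the 20 of highest mean, the 25 of highest CV with 3 just outside, and in each of 19 lists the 4 of highest mean and the 2 of highest CV. Not all are printed, and others are said to be chosen after their values were seen. The members and lists were chosen with earlier results of these data known.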

Additional observations from a re-analysis of the deposited data

Results flagged for a closer look

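Of 166 values examined over the 5 saline fish (levels of named genes, summed lists and 2 shares of reads), 38 had 1 fish whose gap to the nearest other exceeded 0.71 of the whole range, the 95% limit of Dixon's test for 5 values. Chance alone gives about 1 in 20, but that share cannot be set against this count, because many of the genes were chosen for a high CV and several others for their CV within a list. The fish set apart was saline 68 most often (highest in 17, lowest in 1), then saline 67 in 8, saline 64 in 6, saline 63 in 3 and saline 66 in 3. The values below are CPM in the fish that stood apart, and no cause was tested.

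Named by level alone were tagln (349) and cd8b (5.71), highest in saline 68, hsp90ab1 (3357), lowest there, and ddx4 (568), highest in saline 64. Named by CV within a list, some by other rules as well, were insl3 (543), col1a2 (434), col1a1a (325) and ccn2b (38.6), highest in saline 68, plvapa (37.1) in saline 66 and egr1 (16.2) in saline 67.

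Among the most variable genes and those just outside, saline 68 stood highest for gdpd2 (55.8), si:ch211-212k18.5 (54.1), cacnb1 (52.8), csad (36.4), LOC122777765 (34.6), grin1a (34), LOC122780461 (30.9), ncam3 (26.7), ric8a (23), LOC122772977 (22) and si:ch211-76l23.4 (21.8). Saline 67 did so for ccdc88c (559), LOC122779934 (225), LOC122775900 (89.5), LOC122773814 (63.3), LOC122780065 (53.1), LOC122771365 (36.8) and LOC122758320 (24.4). Saline 64 did so for LOC122783486 (47), c6 (33.3), LOC122759463 (22.8), LOC122775197 (18.2) and rab3c (18.1). Saline 63 did so for LOC122785777 (234), LOC122772693 (21.8) and pfkmb (19.7), and saline 66 for LOC122786096 (202) and mylk4b (68.9).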

How the results depend on the processing

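The median CV of 0.121 was 0.121 with TMM or DESeq2 size factors and 0.122 after thinning, but 0.142 at a minimum of 1 CPM, 0.104 at 20 CPM and 0.172 as the SD of log2(CPM + 0.5), and 0.107 to 0.123 when 1 fish was left out, lowest without saline 68. The 49 genes with a CV of 1 or more were 115 at 1 CPM, 9 at 20 CPM and 36 to 55 when 1 fish was left out. Of the 25 most variable genes, 24 were kept under either scaling, 16 without saline 68, 11 at 1 CPM, 5 at 20 CPM and 13 by the SD of log2 values. The share of reads of the 20 genes with the highest mean stayed at 5.39% to 5.7%. Of 725 single-gene CVs recomputed with 1 fish left out, 78 changed by more than a set fold limit. Of 725 mean levels, 0 moved by more than the SD of the 5 fish. Leaving out 1 of 5 fish cannot move a mean that far, so this says nothing about how stable the levels are. The median level of saline 68 for the genes of saline 67 stayed at 11.4% to 14.3% under other limits, chosen after seeing the data. That of saline 66 for the genes of saline 64, 10% at first, fell under the same limits. It was 8.49% (36 genes), 8.36% (4 genes) and 6.39% (6 genes). With rFsh, the 10 calls became 622 in DESeq2, 5 with DESeq2 size factors in edgeR, 4 with filterByExpr, 3 with only the 2 groups and 1 to 998 when 1 fish was left out (998 without rFsh 69, 633 without saline 68). With rLh the 0 calls became 47 in DESeq2 and 0 to 2 when 1 fish was left out. With the fish number as a replicate block there were 28 calls with rFsh and 2 with rLh, but deviations of same-numbered fish correlated at -0.246 to 0.484, so the numbers were not taken as pairs. The difference of rxfp1 with rLh, -0.28, was 0.14 with that block and -0.56 to 0.07 when 1 fish was left out, and with rFsh it was -5.37 with the block. The cause of these shifts was not tested. Counting error weighs most near 5 CPM, where it alone gives a CV of 0.0543 in the smallest saline library. The median CV of the lowest of the 5 level classes was 0.186. A count of 0 allows up to 0.0273 to 0.0442 CPM by library.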
